A study of Homo sapiens with 24 samples.

Results

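The 43 genes described here encode ribosome biogenesis factors, the proteins that make ribosomal RNA, process and modify it, and assemble it with ribosomal proteins into subunits. They were taken by gene symbol from a list, with no threshold on any measured value, and all 43 of the 43 were found among the 61860 gene identifiers of each count table. The list was drawn up with results of the comparisons below already known, so counts over it are a description and the comparisons are no independent evidence for it. By step it holds 5 genes of RNA polymerase I transcription, 13 of the small subunit, 14 of the large subunit, 7 of the small nucleolar ribonucleoproteins (snoRNPs) and 4 nucleolar proteins that act at several steps.

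RNA was sequenced in 24 libraries of OE33, an established human esophageal adenocarcinoma (EAC) cell line, in 4 experiments that share no library and have 3 treated and 3 control libraries each. In the first, OE33 cells were grown for 3 weeks as subcutaneous xenografts in male BALB/c-nu mice, bought at 4 weeks of age and kept for 8 weeks before the injection on a normal diet (ND) or on one high in fat (HFD). These athymic nude mice lack mature T cells. In the other experiments OE33 cells in culture were transfected with plasmids: HA-tagged TRIM15, an E3 ubiquitin ligase, or the empty vector (EV) for 48 h, a short hairpin RNA against the transcription factor YY2 (shYY2) or shControl for 72 h, and a hairpin against the mitochondrial protein FOXRED1 (shFOXRED1) or its own shControl for 72 h. The hairpin of each knockdown is not identified in the labels, and no label ties a library to an animal or a separate culture, so the p-values measure the spread between these libraries, which may be technical.

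Ribosome assembly begins in the nucleolus, where RNA polymerase I copies the ribosomal DNA into a long precursor. Box C/D and box H/ACA snoRNPs methylate and pseudouridylate the precursor, the small subunit processome cleaves and folds its first part, and separate factors carry the large subunit towards the cytoplasm. Cells that grow and divide fast, tumor cells among them, make many ribosomes, and genes for these factors are well known targets of the transcription factor MYC.

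Library totals ranged from 14299807 to 45994561 counts. Levels are given as CPM, the count per 1000000 of a library size scaled by the trimmed mean of M-values (TMM), and a gene is called higher or lower where the Benjamini-Hochberg adjusted p of edgeR's quasi-likelihood test, adjusted over all genes tested, is under 0.05. The treatments were visible in their target genes. TRIM15 was at 5.41, 8.45 and 11.4 CPM with HA-TRIM15 and at 0 in all EV libraries. YY2 was at 0.595 to 0.72 CPM with shYY2 and 2.32 to 2.36 CPM in its controls. Those are few reads, 11 to 12 counts in a library with shYY2 and 40 to 46 in its controls. FOXRED1 was at 8.83 to 11.2 CPM with shFOXRED1 and 17.2 to 17.7 CPM in its controls. In HFD tumors TRIM15 was at 0.614, 0.655 and 0.63 CPM, from 12 to 24 counts, and in ND tumors at 0.0375, 0 and 0 CPM. The epithelial markers EPCAM, KRT7, KRT8, KRT18, KRT19 and CDH1 were high in all libraries, and of 11 markers of leukocytes, endothelium and fibroblasts 9 stayed under 1 CPM in every library, COL1A1 and CD14, which made up most of each sum, being the exceptions. The 11 markers summed to 29.4 to 32.6 CPM in HFD and 35.6 to 38.4 CPM in ND tumors, 12.7 to 15.1 and 14.8 to 16.2 CPM with HA-TRIM15 and EV, 45.8 to 47.96 and 14.4 to 14.8 CPM with shYY2 and its control, and 48.8 to 50.4 and 32.8 to 36.5 CPM with shFOXRED1 and its control. These are human genes, so the sums cannot measure the mouse host cells of the tumors. The part of these markers in the results below was not tested.

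Per kilobase of exonic length, 2 abundant nucleolar proteins led the list in each of the 4 control groups. In the EV libraries NPM1, a nucleolar chaperone, stood at 293 ± 6.47 CPM per kilobase (mean ± SD, n = 3) and NCL, nucleolin, at 159 ± 2.63. NOLC1, a snoRNP chaperone, at 97.9 ± 1.18 and DDX21, an RNA helicase that works with RNA polymerase I, at 96.6 ± 1.54 followed in that group, and these neighbours did not differ beyond their spread. At the other end stood PPAN, an early large subunit factor, at 2.11 ± 0.0849 and NOP2, an RNA methyltransferase of the large subunit, at 0.256 ± 0.0246. In GENCODE 29 PPAN shares 56.0% of its exonic length with the readthrough gene PPAN-P2RY11 and NOP2 54.4% with AC006064.6, both on the same strand, and NOP2 had only 4 to 30 counts in a library, so their values are uncertain. NPM1 has 49 named pseudogenes that could share its reads.

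Counts in each direction differed by experiment. In HFD tumors 25 of the 43 members were higher and 0 lower than in ND tumors, where 25.6% of all 17012 genes tested were higher and 23.9% lower. With HA-TRIM15 3 members were higher and 10 lower, against 12.5% and 9.53% of 15745 genes. These 2 counts rested on single libraries: 4 members were lower without HA-TRIM15 replicate 2 or EV replicate 3, 5 when EV replicate 2 and 14 when HA-TRIM15 replicate 1 was left out, and 1 was higher without EV replicate 1. After shYY2 0 were higher and 42 lower, against 36.8% and 38.1% of 16006 genes, and after shFOXRED1 2 were higher and 22 lower, against 16.8% and 19.7% of 15730 genes. The median log2 fold change of the members was 0.16, -0.06, -1.27 and -0.23 in that order, beside medians over all genes between -0.01 and 0.01. Bulk libraries cannot tell fewer cells of a type from less RNA per cell.

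**Figure D1:**
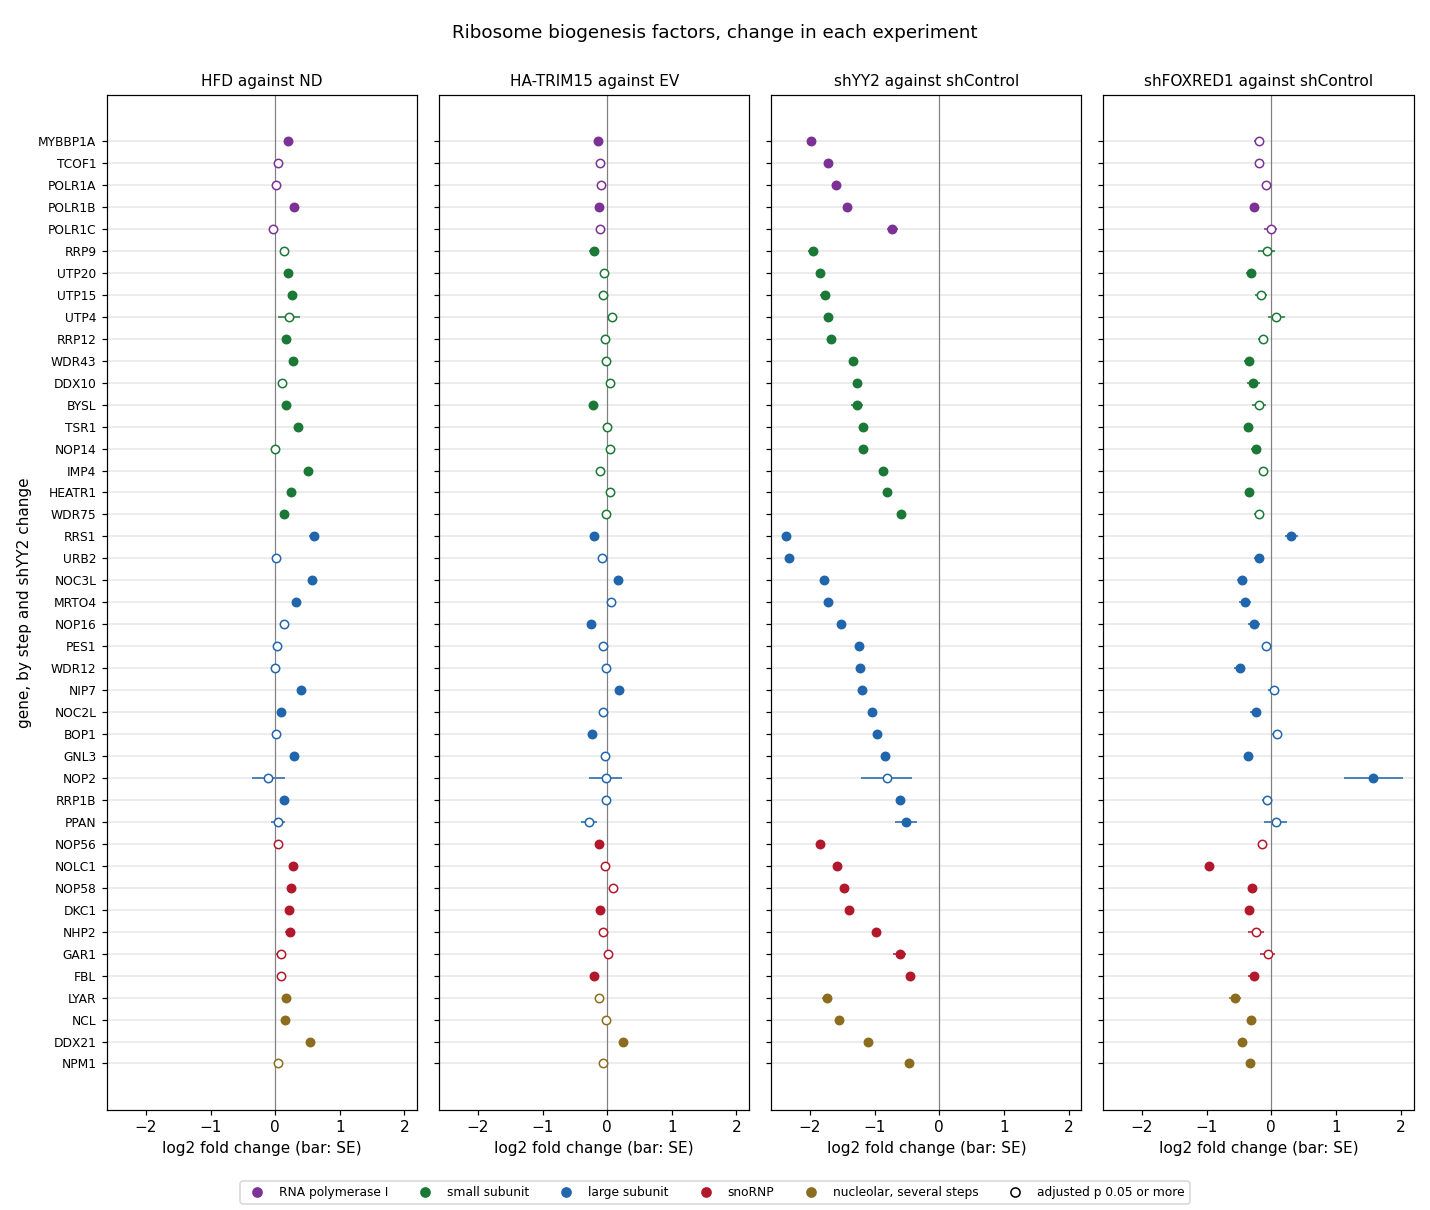
Log2 fold change of each of the 43 members (points, with bars of 1 SE) in the 4 experiments, grouped by step in color and, within a step, ordered by the change after shYY2. Filled points passed the adjusted p of 0.05. Small rises stand in the HFD panel (25 filled points, all to the right of 0), both directions in the HA-TRIM15 panel, and 42 filled points to the left of 0 in the shYY2 panel.

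In the xenografts, the question was how the diet of the host changes the tumor. Small subunit factors were higher in 9 of 13 cases, large subunit factors in 7 of 14, snoRNP proteins in 4 of 7, nucleolar proteins of several steps in 3 of 4 and RNA polymerase I genes in 2 of 5. The calls ran from a log2 fold change of 0.09 for NOC2L, a large subunit factor, to 0.59 for RRS1. Of the 25, 11 reached a fold of 1.2, beside 15.9% of all genes higher and 15.8% lower by that fold, and the member medians of the libraries lay at log2 CPM 5.59 to 5.60 in HFD and 5.26 to 5.35 in ND tumors. Among all genes tested the groups did not overlap in 56.2%, and among the members in 25 of 43, a share near that of all genes.

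Polymerase genes split. POLR1A, the largest catalytic subunit of RNA polymerase I, was at 74.2, 72.8 and 74.7 CPM in HFD and 74.5, 74.7 and 70.6 CPM in ND tumors (log2 fold change 0.01 ± 0.04 SE, adjusted p = 0.836), with overlapping libraries. POLR1B, the second catalytic subunit, was at 43.7, 40.6 and 40.2 CPM against 34.8, 33.6 and 32.8 CPM and was higher in every HFD library (log2 fold change 0.30 ± 0.05 SE, adjusted p = 9.66e-05). POLR1C, which RNA polymerase III shares, was at 26.3, 23.5 and 24.2 CPM and 23.5, 25.7 and 26.8 CPM, the most negative value among members above 1 CPM (log2 fold change -0.04 ± 0.06 SE, adjusted p = 0.631).

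The 3 largest rises were in large subunit factors and a helicase. RRS1, needed for the 5S particle to join the large subunit, was at 25.1, 23.7 and 25.2 CPM in HFD and 14.8, 16.9 and 17.3 CPM in ND tumors (log2 fold change 0.59 ± 0.07 SE, adjusted p = 1.49e-06). NOC3L, a nucleolar complex protein of the large subunit, was at 41.2, 43.7 and 40.1 CPM against 30.1, 27.8 and 26.3 CPM (log2 fold change 0.56 ± 0.06 SE, adjusted p = 3.34e-07). DDX21 was at 324, 332 and 334 CPM against 229, 219 and 232 CPM (log2 fold change 0.55 ± 0.04 SE, adjusted p = 2.4e-09). In all 3 genes every HFD library was above every ND library. IMP4, a U3 snoRNP protein of the small subunit processome, rose by 0.51 on the log2 scale, and NIP7 by 0.40.

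Box C/D proteins moved unevenly. NOP56, a scaffold of the particle, was at 182, 172 and 183 CPM in HFD and 171, 171 and 179.9 CPM in ND tumors (log2 fold change 0.05 ± 0.04 SE, adjusted p = 0.335). FBL, fibrillarin, the methyltransferase of the same particle, was at 99.8, 103 and 93.2 CPM against 95.9, 92.1 and 89.9 CPM (log2 fold change 0.08 ± 0.04 SE, adjusted p = 0.114). Neither passed the test, and their libraries overlapped, although FBL passed without HFD replicate 3 (log2 fold change 0.13, adjusted p = 0.0343), whereas NOP58 was higher (log2 fold change 0.25). DKC1, dyskerin, the pseudouridine synthase of the box H/ACA particle, was at 138, 132 and 136 CPM against 116, 111 and 123 CPM and was higher (log2 fold change 0.22 ± 0.04 SE, adjusted p = 0.000271).

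Of the abundant nucleolar proteins, NCL passed the test and NPM1 did not. NCL was at 679.9, 715 and 684 CPM in HFD and 631, 589 and 649.7 CPM in ND tumors, without overlap (log2 fold change 0.15 ± 0.04 SE, adjusted p = 0.0037). NPM1 was at 756, 819.9 and 786 CPM against 793, 706 and 803 CPM, with overlap (log2 fold change 0.04 ± 0.05 SE, adjusted p = 0.521). The PeBoW complex, BOP1, PES1 and WDR12, which is needed for large subunit processing, did not pass the test in any of its genes. BOP1 was at 123, 132 and 121 CPM against 125, 133 and 114 CPM (log2 fold change 0.01 ± 0.05 SE, adjusted p = 0.896), and WDR12 at 41.3, 42.2 and 37.8 CPM against 42.5, 37.6 and 40.8 CPM (log2 fold change 0.00 ± 0.06 SE, adjusted p = 0.974). NOP14, of the small subunit, was at 55.8, 53.0 and 56.9 CPM and 53.4, 58.2 and 55.0 CPM (log2 fold change -0.01 ± 0.05 SE, adjusted p = 0.901).

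MYC rose beside the members in HFD tumors (log2 fold change 0.32 ± 0.04 SE), as did the proliferation marker MKI67 (0.32 ± 0.04 SE), and their part in the result was not tested.

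The member changes with HA-TRIM15 ran from -0.28 to 0.24 on the log2 scale, and 0 of the 13 calls reached a fold of 1.2, which 4.64% of all genes did as higher and 2.99% as lower. The comparison asks what an excess of TRIM15 does to the cells. Groups did not overlap in 17 of 43 members, against 37.7% of all genes tested. The 10 lower members were POLR1B and MYBBP1A of RNA polymerase I transcription, RRP9 and BYSL of the small subunit, BOP1, NOP16 and RRS1 of the large subunit, and the snoRNP proteins NOP56, FBL and DKC1. The 3 higher members were DDX21, NIP7 and NOC3L.

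DDX21 was at 549.6, 592 and 576 CPM with HA-TRIM15 and 480.0, 494 and 481 CPM with EV (log2 fold change 0.24 ± 0.03 SE, adjusted p = 0.000126). NIP7, a large subunit factor whose exons overlap a gene on the other strand, was at 62.8, 62.8 and 67.9 CPM against 55.4, 56.2 and 58.7 CPM (log2 fold change 0.18 ± 0.04 SE, adjusted p = 0.00979), and NOC3L at 70.8, 75.4 and 71.6 CPM against 63.3, 66.2 and 64.5 CPM (log2 fold change 0.16 ± 0.04 SE, adjusted p = 0.0101). In all 3 genes the HA-TRIM15 libraries lay above the EV libraries. NOC3L lost its call without HA-TRIM15 replicate 2 or EV replicate 1 or 3 (adjusted p 0.0595 to 0.0647), and NIP7 without EV replicate 1 (0.0592).

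Among the lower members, NOP16, a large subunit factor, was at 37.2, 32.4 and 35.02 CPM with HA-TRIM15 and 40.8, 42.7 and 41.1 CPM with EV (log2 fold change -0.25 ± 0.05 SE, adjusted p = 0.00457). BOP1 was at 171, 142 and 139 CPM against 177, 174 and 182 CPM (log2 fold change -0.24 ± 0.06 SE, adjusted p = 0.0113), with 1 HA-TRIM15 library close to the EV libraries and the other two well below. BOP1 belongs to a short set of genes that the study picked by crossing YY2 chromatin binding data with the HA-TRIM15 and shYY2 libraries. Its values in these 2 experiments are therefore not independent evidence of its direction. PPAN was at 4.82, 4.88 and 3.73 CPM against 5.62, 5.54 and 5.21 CPM and did not pass the test (log2 fold change -0.28 ± 0.13 SE, adjusted p = 0.131). The call on BOP1 was lost without HA-TRIM15 replicate 2 or EV replicate 3 (adjusted p 0.0576 and 0.0519).

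Both core box C/D genes that had not passed in the tumors were lower here. NOP56 was at 374, 366 and 366 CPM with HA-TRIM15 and 409, 405 and 399 CPM with EV (log2 fold change -0.13 ± 0.03 SE, adjusted p = 0.00436), and FBL at 165, 150.2 and 145 CPM against 176, 181 and 175 CPM (log2 fold change -0.21 ± 0.04 SE, adjusted p = 0.00317). Neither overlapped. DKC1 was at 206, 205 and 203 CPM against 219, 226 and 216 CPM (log2 fold change -0.11 ± 0.03 SE, adjusted p = 0.0289), a call lost without any 1 library except HA-TRIM15 replicate 1. POLR1B was at 71.2, 70.7 and 73.0 CPM against 78.1, 78.8 and 77.2 CPM (log2 fold change -0.12 ± 0.04 SE, adjusted p = 0.028), lost without HA-TRIM15 replicate 2 or any 1 EV library.

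The remaining fixed genes did not pass. POLR1A was at 125, 123 and 129.8 CPM with HA-TRIM15 and 134, 132 and 137 CPM with EV (log2 fold change -0.09 ± 0.04 SE, adjusted p = 0.087), below EV in every library. NCL was at 1077, 1148 and 1036 CPM against 1097, 1126 and 1091 CPM (log2 fold change -0.02 ± 0.03 SE, adjusted p = 0.68), and NPM1 at 1114, 1037 and 1063 CPM against 1118, 1146 and 1096 CPM (log2 fold change -0.06 ± 0.03 SE, adjusted p = 0.164). NPM1 passed without HA-TRIM15 replicate 1 (log2 fold change -0.09, adjusted p = 0.00659). MYC (log2 fold change 0.03) and MKI67 (-0.04) did not pass either.

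**Figure D2:**
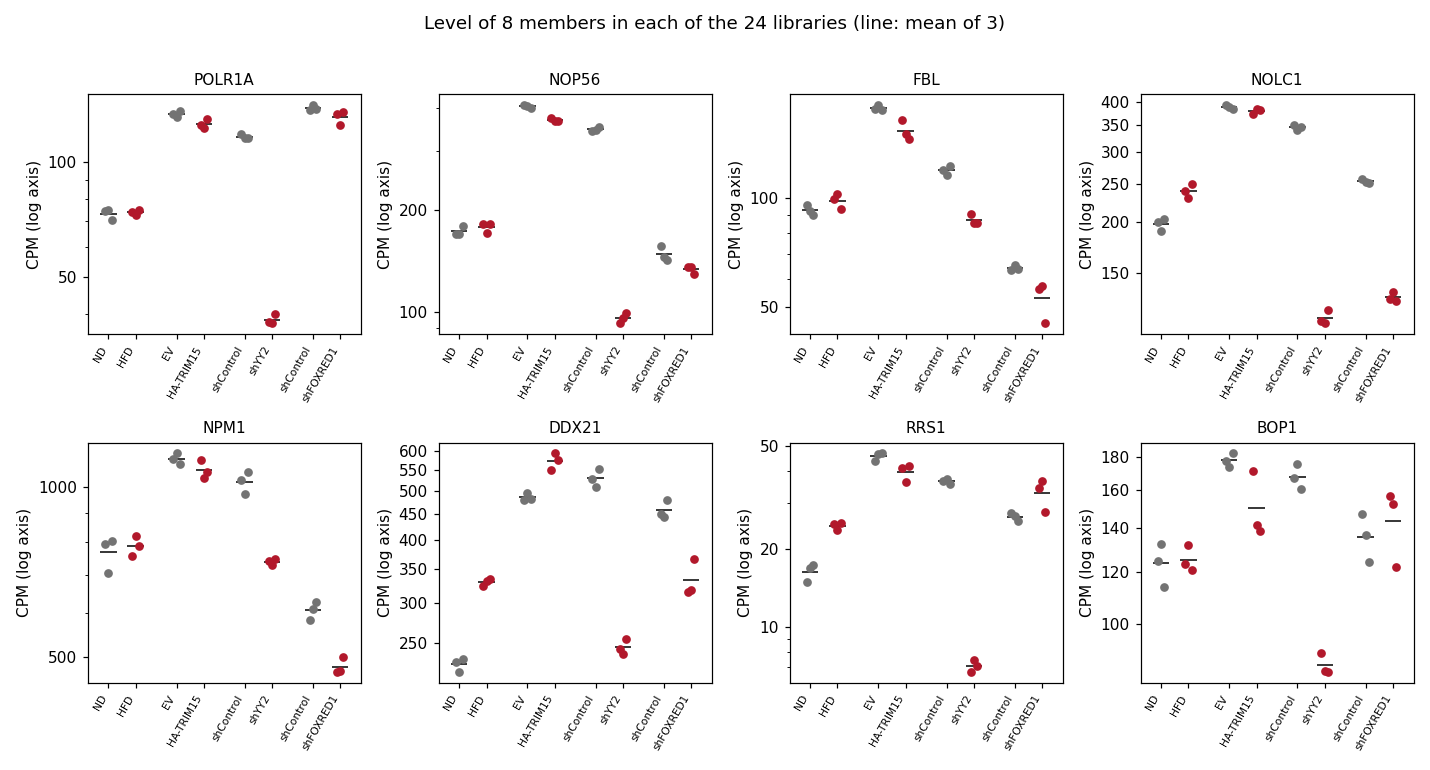
Level of 8 members in each of the 24 libraries, in CPM on log axes that differ between panels, with control libraries in grey, treated libraries in red and the mean of 3 as a line. All 8 genes drop with shYY2, by least in FBL and NPM1. NOLC1 also drops with shFOXRED1, from 251 to 256 CPM to 127 to 134 CPM, and RRS1 and BOP1 do not.

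The shYY2 comparison asks what the loss of this transcription factor does to the same cells, and it showed a decline of nearly the whole list. Of the 43 members 42 were lower, NOP2 being the exception, and 30 were at no more than 0.5 of their control level. That level lay between the log2 fold changes of NOC2L (-1.05) and NHP2 (-0.98), which stood at percentiles 7.92 and 9.00 of all genes. All 42 passed a fold of 1.2, as 32.2% of all genes did in that direction. The groups did not overlap in 42 members, against 76.3% of all genes tested, and 75% of all genes were called in either direction. By position in the whole distribution, 23 of the 43 members lay below the 5th percentile of all log2 fold changes, which is -1.27, and 42 below the 25th. Members took 0.587% to 0.603% of all counts in the control libraries and 0.269% to 0.278% with shYY2. The member medians of the libraries were log2 CPM 6.07 to 6.14 and 4.69 to 4.79.

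All 5 RNA polymerase I genes fell. POLR1A was at 37.9, 37.7 and 39.8 CPM with shYY2 and 118, 116 and 116 CPM with shControl (log2 fold change -1.60 ± 0.04 SE, adjusted p = 5.09e-15), and POLR1B at 24.6, 24.3 and 23.2 CPM against 65.3, 65.4 and 63.2 CPM (log2 fold change -1.43 ± 0.05 SE, adjusted p = 1.9e-13). MYBBP1A, a nucleolar MYB-binding protein that takes part in ribosomal RNA synthesis, was at 16.4, 17.3 and 18.2 CPM against 68.5, 70.5 and 67.1 CPM (log2 fold change -1.99 ± 0.05 SE, adjusted p = 1.62e-14). TCOF1, treacle, an RNA polymerase I cofactor, fell by 1.72 on the log2 scale, and POLR1C, the subunit shared with RNA polymerase III, by 0.73. Counts of POLR1A per count of POLR1C were 5.51, 4.32 and 4.94 in the control libraries and 2.62, 2.47 and 2.93 with shYY2, a ratio within a library that no scaling changes.

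The 13 small subunit factors all fell, between 0.59 for WDR75 and 1.96 for RRP9 on the log2 scale. WDR75 and HEATR1 (fall of 0.81) belong to the UTP-A complex that binds the nascent precursor, and so do UTP4 (1.72), UTP15 (1.77) and WDR43 (1.34), so the complex spanned most of the range. HEATR1 shares 23.2% of its exonic length with a gene on the other strand.

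Both of the largest falls were in large subunit factors. RRS1 was at 6.69, 7.44 and 7.03 CPM with shYY2 and 36.6, 37.1 and 35.7 CPM with shControl (log2 fold change -2.37 ± 0.07 SE, adjusted p = 5.1e-14). URB2, of early large subunit particles, was at 7.24, 9.36 and 8.17 CPM against 42.2, 41.7 and 39.7 CPM (log2 fold change -2.32 ± 0.08 SE, adjusted p = 2.2e-13). BOP1 was at 90.2, 84.6 and 84.4 CPM against 167, 176 and 161 CPM (log2 fold change -0.96 ± 0.04 SE, adjusted p = 3.13e-12), and its PeBoW partners PES1 and WDR12 fell by 1.24 and 1.22. The study picked BOP1 partly on these libraries, so this fall is no independent evidence either. PPAN was at 2.43, 3.30 and 3.62 CPM against 4.94, 4.84 and 3.73 CPM (log2 fold change -0.52 ± 0.17 SE, adjusted p = 0.0111), a call lost without shYY2 replicate 1 (adjusted p = 0.0669). NOP2, at 0.609, 0.24 and 0.703 CPM and 0.549, 0.886 and 1.31 CPM, did not pass (adjusted p = 0.0759).

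Within the box C/D particle the core proteins fell by different amounts. NOP56 was at 93.0, 96.4 and 99.5 CPM with shYY2 and 342, 346 and 351 CPM with shControl (log2 fold change -1.85 ± 0.03 SE, adjusted p = 2.72e-16). FBL was at 90.3, 85.4 and 85.5 CPM against 119.7, 116 and 123 CPM (log2 fold change -0.46 ± 0.04 SE, adjusted p = 8.09e-09), the smallest fall of the 43, and NOP58 fell by 1.47. The counts of NOP56 per count of FBL were 2.86, 2.99 and 2.87 in the control libraries and 1.03, 1.13 and 1.16 with shYY2. In the other experiments the groups overlapped in this ratio. It was 1.83, 1.68 and 1.96 in HFD and 1.78, 1.85 and 2.00 in ND tumors. With HA-TRIM15 it was 2.27, 2.43 and 2.52 and with EV 2.33, 2.24 and 2.28. With shFOXRED1 it was 2.43, 2.37 and 2.87 and in its controls 2.47, 2.24 and 2.24. Counts of NOP58 per count of FBL separated with shYY2, at 0.509, 0.518 and 0.507 against 1.01, 1.09 and 1.00. They also separated with HA-TRIM15, at 0.764, 0.884 and 0.888 against 0.678, 0.678 and 0.687, and overlapped in HFD and shFOXRED1.

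The box H/ACA particle showed the same kind of spread. DKC1 was at 75.4, 76.1 and 74.0 CPM with shYY2 and 195, 196 and 204 CPM with shControl (log2 fold change -1.40 ± 0.03 SE, adjusted p = 4.67e-15), while NHP2 fell by 0.98 and GAR1 by 0.62. Counts of DKC1 per count of GAR1 went from 8.18, 8.20 and 7.16 to 4.90, 5.08 and 3.83, and with shFOXRED1 from 12.6, 10.5 and 11.9 to 8.99, 9.59 and 10.2, also without overlap. NOLC1, which binds both kinds of snoRNP, fell by 1.58.

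The pair of abundant nucleolar proteins came apart. NCL was at 333, 325 and 342 CPM with shYY2 and 991, 942 and 1001 CPM with shControl (log2 fold change -1.55 ± 0.03 SE, adjusted p = 1.15e-15), whereas NPM1 was at 740.5, 728 and 745 CPM against 1029.5, 973 and 1063 CPM (log2 fold change -0.47 ± 0.03 SE, adjusted p = 1.24e-09). Counts of NCL per count of NPM1 were 0.963, 0.968 and 0.942 in the control libraries and 0.45, 0.446 and 0.458 with shYY2. This ratio also separated in the tumors, at 0.899, 0.871 and 0.871 in HFD and 0.796, 0.835 and 0.809 in ND. The groups overlapped with HA-TRIM15 and with shFOXRED1. LYAR, a nucleolar cell growth regulator, fell by 1.74 and DDX21 by 1.11. These differences between genes are descriptions and were not tested.

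MYC was at 213, 206 and 203 CPM with shYY2 and 259, 264 and 246 CPM with shControl (log2 fold change -0.30 ± 0.03 SE), and MKI67 fell by 0.56 on the log2 scale. COL1A1 rose by 2.00. Whether any of them has a part in the decline was not tested.

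The promoters of members that fell together are shown for what they hold, as descriptions. RefSeq promoters (GRCh38.p14, 250 bases before and 50 after a start) were matched by symbol for 35 of the 43 members, 43 promoters in all, and TCOF1, RRP12, BOP1, URB2, NOP58, NOLC1, RRP1B and RRS1 have none in this set. The E-box CACGTG, a sequence that MYC and other factors bind, stood in 17 of the 43 promoters (39.5%), against 7.26% of 35116 promoters of this length and 8.34% of those of protein-coding genes. It stood in 25.7% of 113 promoters of other ribosome biogenesis factors and in 5.13% of 78 of ribosomal protein genes. AANATGGCG, letters of the motif of YY1, which YY2 resembles in its zinc fingers, stood in 4 (9.30%), against 3.19% and 4.24%. It stood in 7.96% of the promoters of other ribosome biogenesis factors. In those of ribosomal protein genes its share was 10.3%, above that of the members. Both motifs were searched on both strands, and neither contains the other. The 4 promoters printed here, 5′ to 3′ on the strand of the gene, hold the E-box in capitals, and that of UTP20 holds AANATGGCG in capitals as well, without overlap. They were picked among members with the E-box, where the falls after shYY2 were largest in MYBBP1A, RRP9 and UTP20 (1.84 on the log2 scale) and smallest in FBL. NOP56, which fell by 1.85, and UTP15, which fell by 1.77, hold neither motif in their promoters.
UTP20 (chr12:101279855-101280154, plus strand): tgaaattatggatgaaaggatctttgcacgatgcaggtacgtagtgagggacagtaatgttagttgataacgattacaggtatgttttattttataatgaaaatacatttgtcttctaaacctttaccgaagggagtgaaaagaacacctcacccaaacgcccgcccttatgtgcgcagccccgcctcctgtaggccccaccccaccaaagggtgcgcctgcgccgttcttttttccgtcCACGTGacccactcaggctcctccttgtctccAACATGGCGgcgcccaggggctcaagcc
MYBBP1A (chr17:4555335-4555634, minus strand): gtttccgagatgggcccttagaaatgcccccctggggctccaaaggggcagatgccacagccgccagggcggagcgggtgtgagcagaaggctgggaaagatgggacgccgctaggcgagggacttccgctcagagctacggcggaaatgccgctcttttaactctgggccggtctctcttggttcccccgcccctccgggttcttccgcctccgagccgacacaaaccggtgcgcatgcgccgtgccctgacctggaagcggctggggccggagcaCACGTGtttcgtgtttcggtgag
RRP9 (chr3:51941855-51942154, minus strand): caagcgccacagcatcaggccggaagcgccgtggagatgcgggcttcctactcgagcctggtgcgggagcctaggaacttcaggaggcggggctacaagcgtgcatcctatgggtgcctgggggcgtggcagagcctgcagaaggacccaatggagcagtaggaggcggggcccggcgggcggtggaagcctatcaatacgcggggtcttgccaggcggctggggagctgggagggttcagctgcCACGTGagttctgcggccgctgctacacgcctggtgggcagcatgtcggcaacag
FBL (chr19:39846330-39846629, minus strand): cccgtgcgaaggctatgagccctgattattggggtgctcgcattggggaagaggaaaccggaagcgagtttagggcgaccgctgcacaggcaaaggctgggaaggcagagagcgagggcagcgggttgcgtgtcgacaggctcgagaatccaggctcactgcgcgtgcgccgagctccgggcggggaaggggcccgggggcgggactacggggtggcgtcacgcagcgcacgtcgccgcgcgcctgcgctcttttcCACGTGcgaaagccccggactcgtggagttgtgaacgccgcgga

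After shYY2 the medians of members with and without the E-box were close: the 17 with it had a median log2 fold change of -1.27 (range -1.99 to -0.46) and the 18 without it -1.21 (range -1.84 to -0.47). For AANATGGCG the medians were -1.03 in the 4 members with it and -1.27 in the 31 without.

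The shFOXRED1 comparison asks the same of a mitochondrial protein, and it showed a decline of part of the list. The 22 lower members ran from -0.96 to -0.19 on the log2 scale, and 19 of them passed a fold of 1.2, as 15.5% of all genes did in that direction. All 4 nucleolar proteins of several steps were lower, as were 4 of 7 snoRNP proteins, 7 of 14 large subunit factors, 6 of 13 small subunit factors and 1 of 5 RNA polymerase I genes. Groups did not overlap in 27 of 43 members, against 46.7% of all genes tested. The members took 0.357% to 0.359% of counts with shFOXRED1 and 0.422% to 0.425% in the controls, and the treated libraries differed among themselves, with member medians of log2 CPM 5.74, 5.82 and, in replicate 3, 5.499. With 1 library left out 16 to 22 members were lower, the fewest without shControl replicate 2, and 0 to 3 were higher, with 0 without shFOXRED1 replicate 2 or shControl replicate 3 and 3 without shFOXRED1 replicate 3. With the replicate number as a block 27 were lower and 2 higher.

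NOLC1 stood apart, with 129, 134 and 127 CPM with shFOXRED1 and 256, 252 and 251 CPM with shControl (log2 fold change -0.96 ± 0.05 SE, adjusted p = 4.72e-10). It was the only member below the 5th percentile of all genes, -0.66. LYAR was at 20.6, 19.0 and 16.6 CPM against 27.2, 28.2 and 27.6 CPM (log2 fold change -0.56 ± 0.10 SE, adjusted p = 0.000193), and WDR12 at 30.2, 28.9 and 32.8 CPM against 40.7, 42.7 and 45.7 CPM (log2 fold change -0.49 ± 0.08 SE, adjusted p = 0.000113). None of these 3 overlapped.

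The abundant nucleolar proteins fell by similar amounts. NCL was at 570.2, 564 and 532 CPM with shFOXRED1 and 686, 679 and 704 CPM with shControl (log2 fold change -0.31 ± 0.05 SE, adjusted p = 4.04e-05), and NPM1 at 472, 473 and 501 CPM against 583, 608 and 628 CPM (log2 fold change -0.33 ± 0.05 SE, adjusted p = 3.37e-05). DKC1 was at 127, 133 and 132 CPM against 162, 169 and 165 CPM (log2 fold change -0.34 ± 0.05 SE, adjusted p = 9.08e-05). DDX21 fell by 0.46 on the log2 scale.

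FBL was at 56.1, 57.4 and 45.2 CPM with shFOXRED1 and 63.4, 65.4 and 63.6 CPM with shControl (log2 fold change -0.27 ± 0.08 SE, adjusted p = 0.0138), and NOP56 at 136, 136 and 129.9 CPM against 157, 146 and 143 CPM (log2 fold change -0.15 ± 0.06 SE, adjusted p = 0.0521). The call on FBL was lost without shControl replicate 2 (adjusted p = 0.0589), and NOP56 passed without shFOXRED1 replicate 3 (0.0370) or with the replicate number as a block (0.00634). POLR1B was at 63.5, 56.4 and 63.8 CPM against 68.5, 76.4 and 75.6 CPM (log2 fold change -0.26 ± 0.07 SE, adjusted p = 0.0073), lost without shFOXRED1 replicate 2 (0.0612). POLR1A, at 134, 125 and 136 CPM and 137, 142 and 138 CPM, did not pass (log2 fold change -0.08 ± 0.06 SE, adjusted p = 0.288).

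At the upper end RRS1 was at 34.4, 36.8 and 27.8 CPM with shFOXRED1 and 27.6, 26.7 and 25.8 CPM with shControl (log2 fold change 0.31 ± 0.10 SE, adjusted p = 0.0191), a call lost without shFOXRED1 replicate 1 or 2 or shControl replicate 2 or 3 (adjusted p 0.0610 to 0.130). BOP1 was at 157, 152 and 122 CPM against 147, 136 and 124 CPM (log2 fold change 0.08 ± 0.08 SE, adjusted p = 0.478) and passed as higher without replicate 3 of shFOXRED1 (log2 fold change 0.18, adjusted p = 0.00761). UTP4 was at 24.6, 15.7 and 17.8 CPM against 18.0, 17.8 and 19.3 CPM (log2 fold change 0.08 ± 0.13 SE, adjusted p = 0.697), with 1 treated library far above the others. NOP2 was called higher at 0.943, 1.19 and 0.684 CPM against 0.275, 0.398 and 0.272 CPM, which is 4 to 22 counts in a library.

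MYC fell by 0.49 and MKI67 by 0.73 on the log2 scale with shFOXRED1, and their part was not tested.

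**Figure D3:**
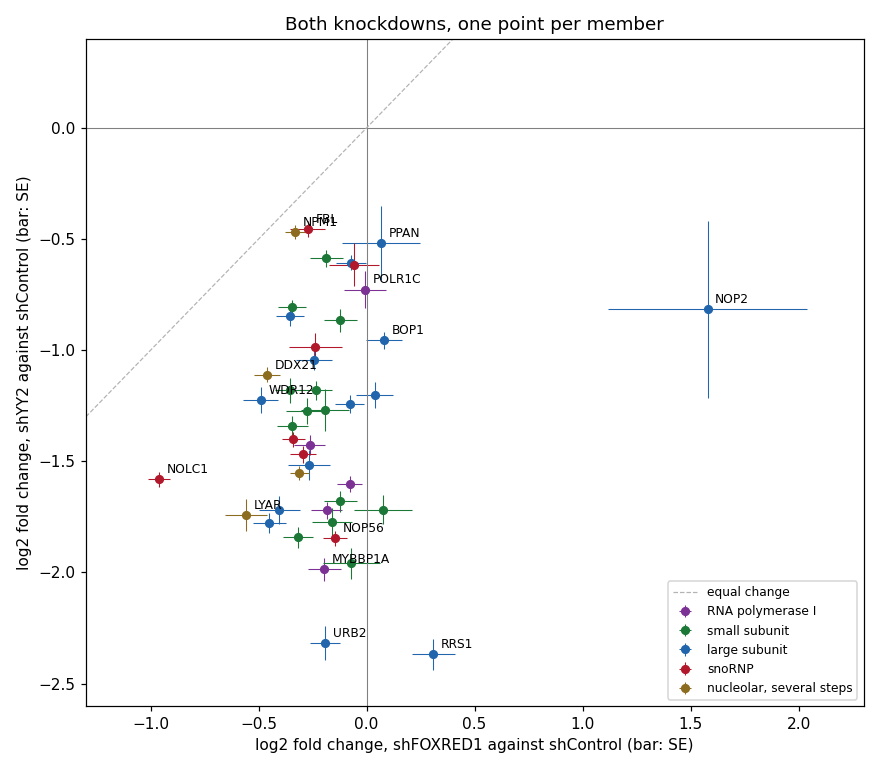
Log2 fold change of each member after shFOXRED1 (horizontal) and after shYY2 (vertical), with bars of 1 SE and the step in color. Every point lies below the dashed line of equal change, NPM1 and FBL nearest to it, and NOP2, with few counts, far to the right at 1.58.

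The size of the decline differed between the knockdowns when the difference itself was tested over the 12 libraries of both experiments. They share no library, so the target, the degree of knockdown and the experiment cannot be told apart. FOXRED1 itself was lower in both. For 41 of 43 members the shYY2 effect was more negative, against 28% of 17146 genes, and for 0 it was more positive (26.4% of genes), while FBL and PPAN did not pass. The effects of HFD and HA-TRIM15 differed in 31 members, all with the HFD effect above, against 21.5% of 17160 genes in that direction and 13.6% in the other. POLR1B, DKC1, NOC3L, DDX21 and RRS1 were called in each of the 4 experiments. In HFD, HA-TRIM15, shYY2 and shFOXRED1, 49.5%, 22.1%, 75% and 36.6% of all genes were called in either direction. The share of all genes called in all 4 was not computed. The calls of POLR1B, DKC1 and NOC3L with HA-TRIM15 and of POLR1B and RRS1 with shFOXRED1 were lost without some single libraries. NOC3L and DDX21 were higher in HFD and with HA-TRIM15 and lower in both knockdowns, POLR1B and DKC1 were higher in HFD and lower in the others, and RRS1 was higher in HFD and with shFOXRED1 and lower with HA-TRIM15 and shYY2.

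Other genes of the pathway were taken from a list of 112 further ribosome biogenesis factors. In HFD tumors 37 were higher and 11 lower of 108 tested, beside 25.6% and 23.9% of all genes. With HA-TRIM15 12 were higher and 17 lower of 108, beside 12.5% and 9.53% of all genes, so the higher share was no larger than the background. With shYY2 6 were higher and 100 lower of 108, beside 36.8% and 38.1%, and with shFOXRED1 3 were higher and 40 lower of 107, beside 16.8% and 19.7%. The median after shYY2 was -0.81 on the log2 scale. The 6 higher ones, named after their values were seen, were POLR1D, RRN3, PWP2, NOB1, RSL24D1 and NOP53, with RRN3, the initiation factor of RNA polymerase I, at 0.87 and PWP2, of the small subunit processome, at 1.08. Few reads were found for both in the shFOXRED1 experiment, with 23 to 39 counts in a library for RRN3 and 3 to 12 for PWP2. PWP2 was not tested there.

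Cytosolic ribosomal proteins, the products that these factors assemble, did not follow the members after shYY2. Of 79 genes 21 were higher and 25 lower, shares under the 36.8% and 38.1% of all genes, with a median log2 fold change of -0.02. The members had 15.4 to 15.6 counts per 100 counts of ribosomal protein genes in the control libraries and 7.01 to 7.38 with shYY2. In HFD tumors 45 of 79 ribosomal protein genes were higher and 0 lower, beside 25.6% and 23.9% of all genes. With HA-TRIM15 2 were higher and 8 lower, beside 12.5% and 9.53%, and with shFOXRED1 0 were higher and 39 lower of 77 tested, beside 16.8% and 19.7%. The ratio was 10.1 to 10.8 in HFD and 10.3 to 10.4 in ND tumors, and 14.8 to 16.1 with shFOXRED1 and 15.6 to 17.2 in its controls.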

How the data were processed

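For every experiment the authors deposited a table of unnormalized whole-number read counts for human genes. The labels name hg38 and mm10 among the builds and no aligner, counter or annotation. Their kit is directional and the one in the study's methods is not, so strand is unsettled, and how mouse reads of the xenografts were handled is not given in the sources used here. Samples were grouped by their titles. The header of the HA-TRIM15 table holds empty cells, and its names were read in order over the columns. Mouse transcripts of the tumors were not analysed here.

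Genes passing filterByExpr at a minimum count of 10 and a minimum total of 15 were scaled by TMM and tested, experiment by experiment, in edgeR 4.0.16 (R 4.3.3, limma 3.58.1) with glmQLFit and glmQLFTest, and p-values were adjusted over all genes tested. The SE is the absolute log2 fold change over the square root of F. Differences between experiments were tested as interaction contrasts over 12 libraries. An exact permutation test of 3 against 3 cannot go below p = 0.1, so none was used. On simulated counts the p-values of unchanged genes were near uniform, but where dispersion varied between genes the share of false calls could run above the nominal rate, so calls near the threshold are less certain than their adjusted p.

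The members and lists were chosen with earlier results of these data known. Values in every library are given for POLR1A, POLR1B, NOP56, FBL, DKC1, NPM1, NCL and BOP1 and for the 3 highest and 3 lowest members by log2 fold change above a mean of 1 CPM, NOP2 being added because it was an exception. Exonic lengths and overlaps are from GENCODE 29. Alternatives were RLE size factors, no filter, at least 10 counts in every library, DESeq2 1.42.0, a fold of 1.2, the replicate number as a block, each library left out and, chosen after seeing the data, leaving out NOP2 and PPAN. Replicate libraries differed by more than counting noise in all 24 pairs (chi-square per gene 1.47 to 7.94). Same-numbered libraries did not deviate together over all genes (r from -0.03 to 0.10), so numbers were not taken as pairs. For shFOXRED1, and in part for shYY2, this depended on the genes used.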

Additional observations from a re-analysis of the deposited data

Results flagged for a closer look

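These results were singled out because 2 effects differed by a test of the difference itself. The HFD effect differed from the HA-TRIM15 effect in 31 members, with a difference on the log2 scale of 0.83 ± 0.09 SE, adjusted p = 2.34e-07 in RRS1, 0.65 ± 0.06 SE, adjusted p = 7.48e-08 in IMP4 and 0.45 ± 0.06 SE, adjusted p = 4.28e-06 in POLR1B. In all 3 the HFD effect was the higher. RRS1 and POLR1B were called higher in HFD tumors and lower with HA-TRIM15, in every library of each comparison. The 2 experiments differ in host, time and handling as well as in treatment, which cannot be told apart.

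The shYY2 effect differed from the shFOXRED1 effect in 41 members. The difference was -2.68 ± 0.13 SE, adjusted p = 2.57e-13 in RRS1, -2.40 ± 0.63 SE, adjusted p = 0.0026 in NOP2 and -2.13 ± 0.10 SE, adjusted p = 2.53e-13 in URB2, and in all 3 the shYY2 effect was the lower. NOP2 had 4 to 26 counts in these libraries. Each knockdown also differed in its degree, since YY2 fell by 1.82 ± 0.22 SE with shYY2 and FOXRED1 by 0.78 ± 0.11 SE with shFOXRED1 on the log2 scale. FOXRED1 was also lower with shYY2, at 19.0, 16.1 and 17.9 CPM against 33.6, 32.1 and 32.6 CPM (log2 fold change -0.89 ± 0.06 SE, adjusted p = 3.31e-09). With shFOXRED1 YY2 was not called (log2 fold change 0.63 ± 0.30 SE, adjusted p = 0.119). The control groups differed too, with members at 0.587% to 0.603% of counts in the shYY2 controls and 0.422% to 0.425% in the shFOXRED1 controls. Target, degree and experiment cannot be told apart.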

How the results depend on the processing

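The counts of members called higher and lower moved by less than 1.5 times, and kept their direction, under RLE size factors, no filter and DESeq2. DESeq2 gave 22 higher and 0 lower in HFD, 3 and 8 with HA-TRIM15, 0 and 42 with shYY2 and 2 and 20 with shFOXRED1. With a fold of at least 1.2 as well, 11 members were higher in HFD and 0 higher and 0 lower with HA-TRIM15. With shFOXRED1 1 member was higher when NOP2 and PPAN were left out, and 1 with at least 10 counts in every library, because NOP2 was then not tested.

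Leaving out each library in turn gave 1 to 4 higher and 4 to 14 lower members with HA-TRIM15 (4 lower without HA-TRIM15 replicate 2 or EV replicate 3, 5 without EV replicate 2, 1 higher without EV replicate 1), 0 to 3 higher and 16 to 22 lower with shFOXRED1 (0 higher without shFOXRED1 replicate 2 or shControl replicate 3, 1 without shFOXRED1 replicate 1 or shControl replicate 1 or 2), and a median of -1.34 to -1.24 with shYY2. The cause was not tested.

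With the replicate block the counts were 24 higher and 0 lower in HFD, 3 and 11 with HA-TRIM15, 0 and 42 with shYY2 and 2 and 27 with shFOXRED1. Whether numbers pair the shFOXRED1 libraries depended on the measure. Over all genes tested r was 0.032, 0.012 and 0.078 for the 3 numbers, by Spearman 0.121, 0.067 and 0.219, on log2 of CPM plus 0.5 0.046, 0.024 and 0.118, and on log2 of CPM plus 1 without TMM 0.063, 0.036 and 0.158. Over genes above a mean log2 CPM of 5 it was 0.371, 0.256 and 0.601, all over 0.1. In the other experiments none of these 5 versions gave 3 values over 0.1. Of the 6 shFOXRED1 and control libraries, 4 correlated best with their own number over all genes tested. For shYY2 r over genes above a mean log2 CPM of 5 was 0.049, 0.249 and 0.334. Of the 6 shYY2 and control libraries, 5 correlated best with their own number over those genes, and 3 over all genes tested.

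Among named members the sign turned in 16 cases, none of them called. In HFD NOP14 was 0.010 with no filter, and with at least 10 counts in every library POLR1A was -0.00021, BOP1 -0.0022 and WDR12 -0.0085. With a library left out the log2 fold change in HFD ranged over -0.0048 to 0.029 for POLR1A, -0.017 to 0.079 for NPM1, -0.036 to 0.066 for BOP1, -0.082 to 0.0018 for POLR1C, -0.031 to 0.037 for NOP14 and -0.054 to 0.059 for WDR12, and over -0.063 to 0.010 for NCL with HA-TRIM15 and -0.14 to 0.21 for UTP4 with shFOXRED1. Few counts limit NOP2 and PPAN.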
